A study of Mus musculus with 6 samples.

Results

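Choroid plexus spots were studied on 6 coronal brain sections profiled by Visium, a method that takes up messenger RNA on a slide of barcoded spots and counts each captured molecule once through its unique molecular identifier (UMI). A spot entered the analysis when the tissue mask marked it as tissue, its barcode was in the count matrix and it held at least 1000 UMIs, which left 13334 spots. Each spot was scored by the summed natural log of 1 plus UMIs per 10000 of 5 genes of the choroid plexus epithelium: Ttr, Ecrg4, Folr1, Kl and Clic6. The 134 spots at or above the pooled 99th percentile of that score are the choroid plexus spots, so that they were chosen by the measured levels of these 5 genes. The threshold was a score of 9.72. The last spots inside it scored 9.74 and 9.77, the first outside it 9.68 and 9.55, the median choroid plexus spot 15.7 and the median other spot 1.77. These 5 genes, and all other genes of the same spots, were therefore used or touched by the choice, and the contrast of choroid plexus spots with other spots is a description with no test.

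The mice were female and homozygous for human APOE4 (E4) or APOE3 (E3), placed in the mouse Apoe locus on a B6.129P2 background so that the mouse Apoe promoter drives the human allele in the cells that normally use it. Each genotype had 1 section from a young brain (3 months), 1 from an aged brain (24 months) and 1 from a 5xFAD brain (12 months). For the 5xFAD mice, APOE mice were bred with a B6SJL line whose mutant human transgenes are driven by Thy1 promoter cassettes, so that 5xFAD status, age and strain background cannot be told apart. All sections were coronal cuts of a right hemisphere frozen in embedding medium. The labels' entry for cell type speaks of non-neuronal brain cells, but the sections hold neurons, and the neuronal gene Snap25 stood at 2999 CPM (UMIs of a gene per 1000000 UMIs of the same spots) in spots over 10 steps from any choroid plexus spot. With 1 brain per genotype and condition, p-values below rest on the spread between 6 sections. That spread was mostly a value shared across genes, not each gene's own, because the fits leave 2 residual degrees of freedom. A spot covers several cells, so fewer cells of a type and less RNA per cell cannot be told apart.

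The choroid plexus is a frond of secretory epithelium around a core of fenestrated vessels and stroma that hangs into the brain ventricles. Its epithelium makes the cerebrospinal fluid by moving ions and water, forms the barrier between blood and that fluid through tight junctions, and secretes carrier proteins and growth factors, with transthyretin (Ttr) as the best known product. The transcription factor OTX2 is needed to form and keep this epithelium, and it binds a core written TAATCC.

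Promoters of 5 markers are shown, 3 of them without the OTX2 core (Kcnj13, the leading gene by ratio, and the score genes Ecrg4 and Kl) and 2 of the 3 looked-up genes that hold it. No bearing of these letters on expression was tested. They span 250 bases before to 50 after the annotated start (RefSeq, GRCm38.p6) and are written 5′ to 3′ on the gene's strand, with capitals marking a match to TAATCC or to its reverse complement GGATTA.

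Kcnj13 (chr1:87394680-87394979, minus strand): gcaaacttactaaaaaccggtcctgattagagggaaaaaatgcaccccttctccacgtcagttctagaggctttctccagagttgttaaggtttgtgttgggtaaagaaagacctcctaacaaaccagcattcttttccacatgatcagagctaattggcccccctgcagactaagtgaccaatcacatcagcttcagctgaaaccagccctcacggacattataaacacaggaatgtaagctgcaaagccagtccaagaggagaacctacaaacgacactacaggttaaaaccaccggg
Ecrg4 (chr1:43730352-43730651, plus strand): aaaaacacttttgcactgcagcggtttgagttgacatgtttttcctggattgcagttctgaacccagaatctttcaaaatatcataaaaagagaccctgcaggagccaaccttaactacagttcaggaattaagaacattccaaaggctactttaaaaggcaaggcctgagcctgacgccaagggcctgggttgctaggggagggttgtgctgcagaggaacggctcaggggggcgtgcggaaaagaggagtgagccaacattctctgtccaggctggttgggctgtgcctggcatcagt
Kl (chr5:150952357-150952656, plus strand): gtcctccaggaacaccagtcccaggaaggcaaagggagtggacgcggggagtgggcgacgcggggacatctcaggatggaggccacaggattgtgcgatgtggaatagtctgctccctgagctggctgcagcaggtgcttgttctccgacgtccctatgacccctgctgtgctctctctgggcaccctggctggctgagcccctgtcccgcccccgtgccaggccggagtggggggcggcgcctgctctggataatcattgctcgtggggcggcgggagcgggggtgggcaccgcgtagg
Car14 (chr3:95904636-95904935, minus strand): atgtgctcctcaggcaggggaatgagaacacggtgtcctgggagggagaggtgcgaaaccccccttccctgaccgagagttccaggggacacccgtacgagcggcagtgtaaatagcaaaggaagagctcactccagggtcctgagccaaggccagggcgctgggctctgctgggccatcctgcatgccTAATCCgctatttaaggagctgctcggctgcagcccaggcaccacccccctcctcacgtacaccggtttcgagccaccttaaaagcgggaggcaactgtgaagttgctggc
Abca4 (chr3:122044210-122044509, plus strand): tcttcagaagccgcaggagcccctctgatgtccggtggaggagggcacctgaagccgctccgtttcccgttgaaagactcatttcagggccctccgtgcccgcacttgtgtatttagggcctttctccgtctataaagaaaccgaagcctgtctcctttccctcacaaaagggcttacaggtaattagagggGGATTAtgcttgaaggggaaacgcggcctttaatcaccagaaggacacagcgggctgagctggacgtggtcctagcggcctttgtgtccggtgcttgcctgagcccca

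Car14, a membrane carbonic anhydrase, held 1 match that begins 61 bases before the start, and Abca4, a retinoid lipid flippase best known from the retina, held 1 that begins 58 bases before it. Car14 stood at 127 CPM in choroid plexus spots and 12.7 in other spots, and Abca4 at 123 and 1.69. Kcnj13, Ecrg4 and Kl held no match in these windows. Of 31 choroid plexus genes looked up, 25 were in the table, and 3 of them (Car14, Abca4 and Otx2, 12.0%) held a match, against 2199 of the 27025 genes in the table (8.14%).

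Choroid plexus spots sat in compact patches. Of the 134, 133 touched another one. Their number was 9, 30 and 33 in the E4 young, aged and 5xFAD sections and 36, 12 and 14 in the E3 young, aged and 5xFAD sections. As a share of spots this was 0.401% (exact binomial 95% interval 0.184 to 0.760), 2.08% (1.41 to 2.95) and 1.42% (0.980 to 1.99) in E4, against 1.36% (0.955 to 1.88), 0.561% (0.290 to 0.977) and 0.551% (0.302 to 0.923) in E3. These intervals cover counting error only. The E4 shares lay below E3 in the young pair and above it in the aged and 5xFAD pairs, and the 2 genotypes overlapped. No test of the shares was made, since each group is 1 section and the plane of the cut cannot be told apart from the amount of plexus.

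**Figure D1:**
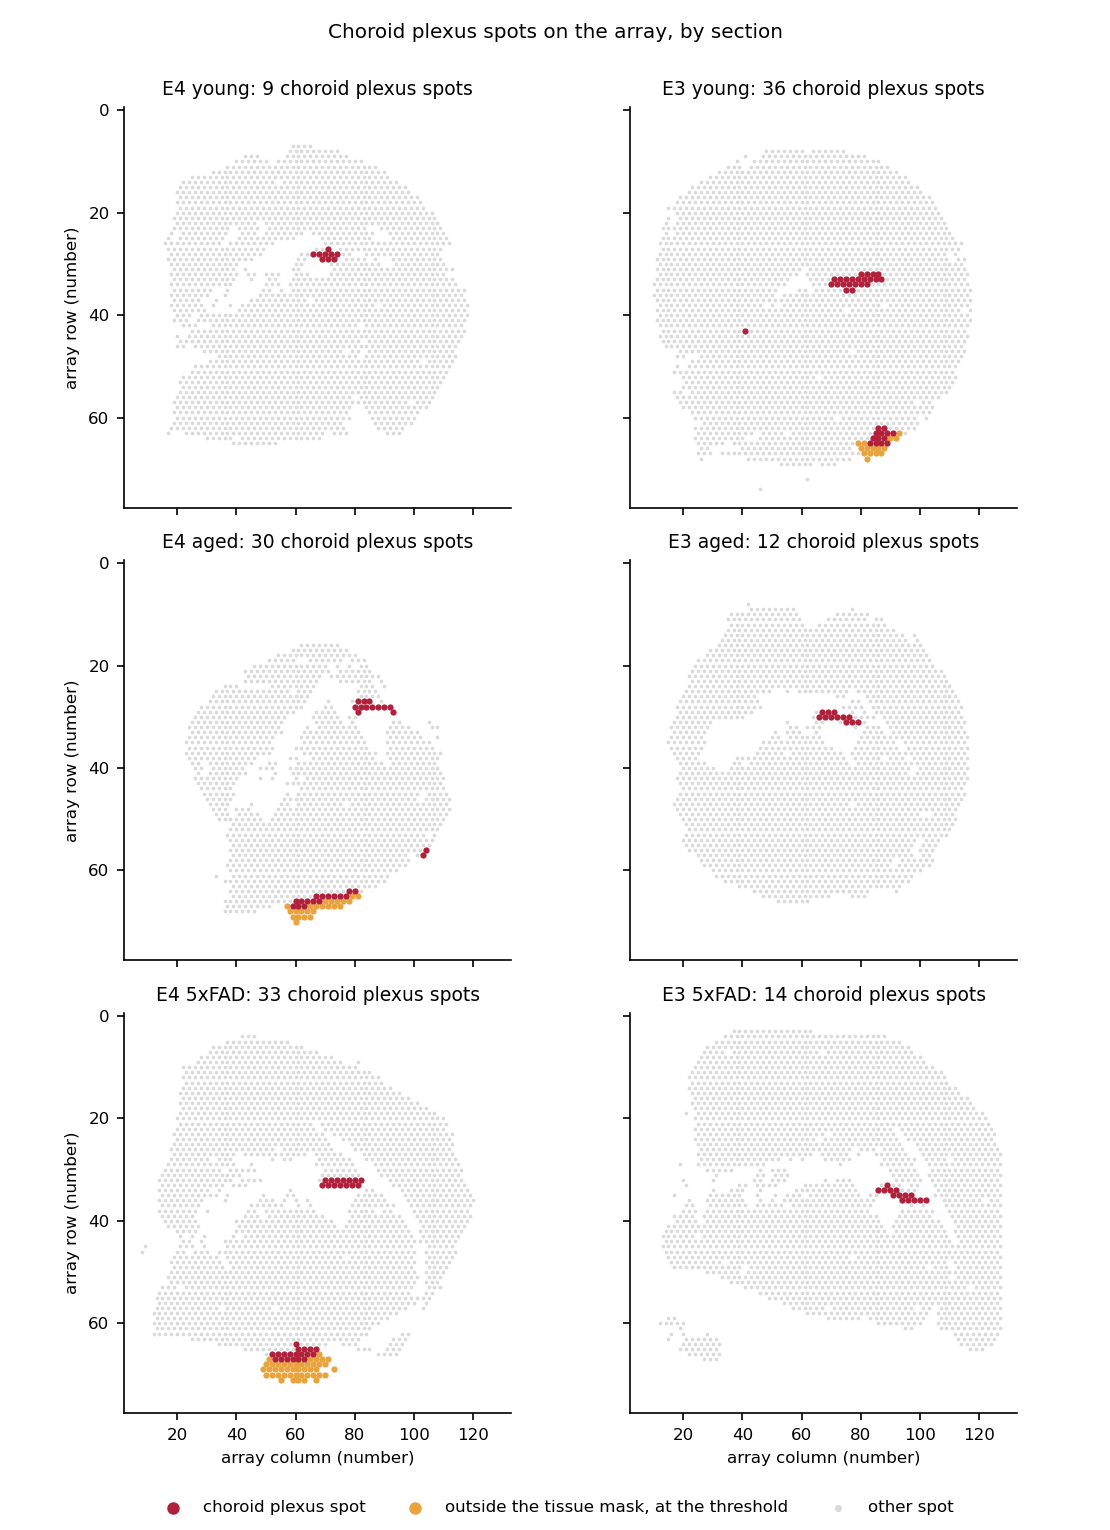
Position of spots on the array (row and column numbers), with E4 sections on the left, E3 sections on the right and young, aged and 5xFAD brains from top to bottom. Red marks the choroid plexus spots, orange marks 83 barcodes outside the tissue mask that reached the score threshold, and grey marks all other spots; the E3 young, E4 aged and E4 5xFAD sections show a second patch.

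Every section had a first patch, at array rows under 50, with 9, 12 and 14 spots in E4 young, aged and 5xFAD and 23, 12 and 14 spots in E3 young, aged and 5xFAD. A second patch, at higher rows, was present only in the E4 aged (18 spots), E4 5xFAD (19 spots) and E3 young (13 spots) sections. Spots were assigned by array row alone. The 18 of E4 aged are a group of 16 and a separate one of 2, and the 23 of E3 young include 1 isolated spot. The second patch was deeper: its spots had a median of 28099.5, 30005 and 35739 UMIs in E4 aged, E4 5xFAD and E3 young, against 9578, 5845 and 17572 UMIs in the first patch of the same sections. Because 2 of the 3 E4 sections and 1 of the 3 E3 sections hold a second patch, genotype and patch are partly mixed, and the main tests below are given for all choroid plexus spots and, where a gene could be tested there, for the first patch alone. Summed over choroid plexus spots, the libraries held 63865, 627819 and 681951 UMIs in E4 young, aged and 5xFAD and 806273, 132435 and 117371 UMIs in E3 young, aged and 5xFAD. The E4 young, E3 aged and E3 5xFAD sums are thus the shallow ones, and low genes are least certain there. A barcode already present among the choroid plexus spots of another section recurred 18 times, and spots were told apart by section and barcode.

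Transthyretin dominated these spots. Ttr took 16.9% of all UMIs in choroid plexus spots and 0.0710% in other spots. Its level was 136976, 187857 and 164613 CPM in E4 young, aged and 5xFAD and 164375, 139163 and 173041 in E3 young, aged and 5xFAD, so the genotypes overlapped. In single spots it ran between 22683 and 289549 CPM around a median of 146982. The other 4 genes of the score were as widely shared. Ecrg4, a secreted peptide precursor, had a UMI in 97.8% of choroid plexus spots, Kl (the anti-ageing co-receptor klotho) in 97.8%, Clic6 (a chloride channel family member) in 94.0% and Folr1 (the folate receptor that loads folate into the fluid) in 88.1%.

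The 22 listed markers of choroid epithelium, which include the 5 of the score, all stood higher in choroid plexus spots than elsewhere, with a median log2 ratio of 7.19, and 21 of them did so in all 6 sections. The exception, Lmx1a, had no UMI in the E4 young spots. Over the 1827 genes with at least 200 UMIs in choroid plexus spots the median log2 ratio was -0.19, and 402 of them were higher and 714 lower in choroid plexus spots in all 6 sections. Outside the score genes, the leading ratio was that of Kcnj13, an apical potassium channel, at 269 CPM in choroid plexus spots and 1.01 in other spots (log2 8.05). It was followed by 2900040C04Rik, Slc4a5, Tmem72 and F5. Slc4a5, a sodium bicarbonate cotransporter of the apical membrane, stood at 236 in choroid plexus spots and 1.04 in other spots, and Kcne2, a potassium channel subunit, at 330 and 1.55. F5, coagulation factor V, stood at 268 CPM in choroid plexus spots and 1.25 in other spots. Without the 5 score genes, all 17 remaining markers were higher in choroid plexus spots (median log2 ratio 6.92), 16 of them in all 6 sections. No gene of a spot is independent of the choice, so these values describe the spots named choroid plexus and do not test that name.

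Genes that make the fluid followed. Of 21 listed genes for ion and water transport, 15 had a ratio over 1 and the median log2 ratio was 2.79. Aqp1, the apical water channel, measured 282, 182 and 139 CPM in E4 young, aged and 5xFAD and 161, 106 and 162 in E3, against 0.882 in the other spots pooled. Trpv4, an osmosensitive cation channel, stood at 105 in choroid plexus spots and 1.42 in other spots. Slc12a2, the cotransporter of sodium, potassium and chloride, stood at 364 and 48.6, and the carbonic anhydrase Car12 at 294 and 8.44. Subunits of the sodium pump that neurons also use did not follow: Atp1b1 was at 1560 in choroid plexus spots and 1922 in other spots.

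Carriers of nutrients and hormones were higher in 22 of 23 cases (median log2 ratio 3.37). Slc16a8, a basolateral lactate carrier, measured 73.3 CPM in choroid plexus spots and 0.321 in other spots. The copper importer Slc31a1 stood at 244 and 15.99 and the thyroid hormone carrier Slco1c1 at 296 and 28.6. Lrp2, a large endocytic receptor, had 1 UMI in all choroid plexus spots, so its level was not detectable at this depth.

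Secreted products were higher in 20 of 21 cases (median log2 ratio 3.38), with Cst3 at 2834 CPM in choroid plexus spots and 3068 in other spots as the exception. Enpp2, the lysophospholipase D autotaxin, measured 14061, 17338 and 16418 CPM in E4 young, aged and 5xFAD and 16307, 13788 and 13496 in E3, against 211 in other spots. Igf2, the growth factor that the plexus and its stroma release, measured 939, 761 and 688 in E4 and 950, 1714 and 1039 in E3. Igf2 was not called between E4 and E3 in the test below. Its E4 values lay under the lowest E3 value, as they did for 6.56% of genes tested, and the gap in the young pair was small. Sostdc1, an inhibitor of BMP and WNT signals, stood at 497 in choroid plexus spots and 4.10 in other spots, and Lbp, the lipopolysaccharide-binding protein, at 263 and 2.41.

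Among receptors and signalling genes, 19 of 20 were higher (median log2 ratio 1.41). The serotonin receptor Htr2c, which this epithelium is known for, stood at 269 CPM in choroid plexus spots and 46.2 in other spots. Ace, the angiotensin-converting enzyme, stood at 501 and 11.3, and the leptin receptor Lepr at 49.8 and 0.865. Junction and epithelial genes were higher in 15 of 17 cases (median log2 ratio 2.96), with the tight junction gene Cldn2 at 132 and 0.849 and the keratin Krt18 at 117 and 1.15. Cldn5, the claudin of the tight brain endothelium, was at 18.5 in choroid plexus spots and 43.9 in other spots. Of the transcription factors, Otx2 measured 141, 142 and 160 CPM in E4 young, aged and 5xFAD and 167, 128 and 170 in E3. Msx1, a homeobox gene of the dorsal midline, measured 31.3, 198 and 229 in E4 and 255, 219 and 119 in E3. The E4 young value of Msx1 rests on 2 UMIs, and the log2 ratio of E4 young over E3 young was -3.03 (exact 95% counting interval -6.08 to -1.16).

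**Figure D2:**
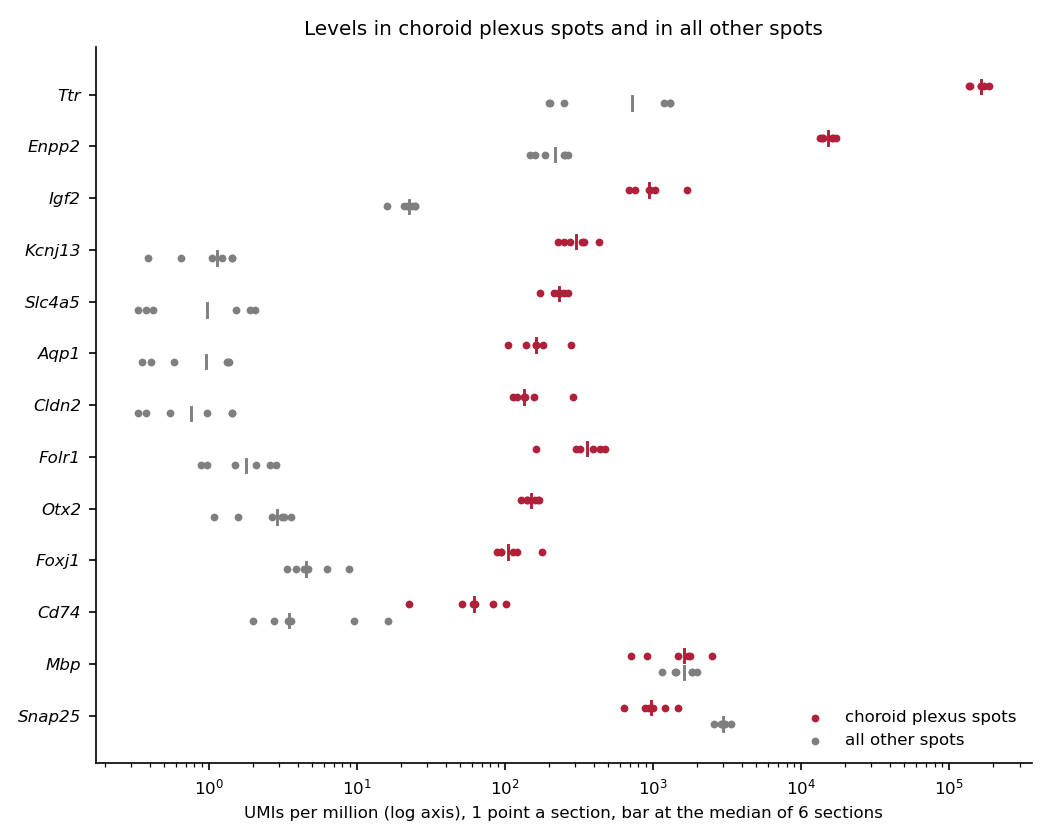
CPM (log axis) of 13 genes in choroid plexus spots (red) and in all other spots (grey), 1 point a section, with a bar at the median of 6 sections. Red and grey points are apart in every gene but Mbp, and Snap25 is the one gene that lies lower in choroid plexus spots in all 6 sections.

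Other cell types in the same spots were present to different degrees. All 12 ependymal and ciliated genes were higher in choroid plexus spots (median log2 ratio 4.24), with summed levels of 861, 540 and 811 CPM in E4 young, aged and 5xFAD and 1356, 1284 and 1201 in E3. The plexus itself expresses some of these, such as Foxj1, the factor for motile cilia, which is also on the list of transcription factors. Stromal and leptomeningeal genes were higher in 12 of 14 cases (median log2 ratio 3.14), among them the collagen-binding proteoglycan Dcn at 66.7 in choroid plexus spots and 7.94 in other spots. Antigen presentation genes of MHC class II were higher in 5 of 6 cases, with Cd74, their invariant chain, at 77.0 and 6.22. Border macrophage genes were near 0: no member of that list of 12 reached 20 UMIs in choroid plexus spots, and Lyve1 and Ccl8 had none. All 14 neuronal genes were lower, with a median log2 ratio of -1.63, and so were all 10 genes of homeostatic microglia (-0.72). Of 12 myelin genes, 1 was higher over the pooled sections, with a median log2 ratio of -0.37, but sections differed. Their sum in choroid plexus spots against other spots was 7578 against 5467, 2856 against 4849 and 2487 against 4162 CPM in E4 young, aged and 5xFAD. In E3 it was 4492 against 5184, 5686 against 4076 and 6569 against 3414.

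Human APOE, the allele that replaced mouse Apoe, was itself higher in choroid plexus spots in all 6 sections, at 1690 CPM against 858 in other spots. It measured 1738, 1967 and 1582 in E4 young, aged and 5xFAD and 1382, 2069 and 2488 in E3 young, aged and 5xFAD, so the genotypes overlapped. Human APP had 10 UMIs in all choroid plexus spots, at 10.3 CPM in E4 5xFAD and 25.6 in E3 5xFAD, and none in the other 4 sections, where the labels place no transgene.

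Levels dropped steeply away from the plexus. Ttr measured 168833 CPM in the choroid plexus spots, 14160 at 1 array step (114 spots), 5414 at 2 steps, 3147 at 3 steps and 453 beyond 10 steps (9897 spots). Kcnj13 measured 269, 23.2, 7.48, 3.20 and 0.640 over the same distances. Beyond 10 steps Ttr stood at 640, 967 and 856 CPM in E4 aged, E4 5xFAD and E3 young, the sections with a second patch, and between 132 and 210 in the other 3. The source of these UMIs was not tested. The myelin gene Mbp ran the other way near the plexus, with 1177 at 0 steps, 3046 at 1 step and 1454 beyond 10, and the neuronal gene Snap25 measured 953, 2065 and 2999. By section, Mbp at 0 steps against beyond 10 was 2521 against 1903, 913 against 1741 and 716 against 1326 in E4 young, aged and 5xFAD. In E3 it was 1487 against 1423, 1737 against 1324 and 1772 against 1087. Across the 134 spots, which share libraries and differ in depth, the rank correlation with Ttr was 0.94 for Enpp2, 0.55 for Kcnj13, -0.64 for Snap25, -0.69 for Mbp and 0.52 for the number of UMIs.

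**Figure D3:**
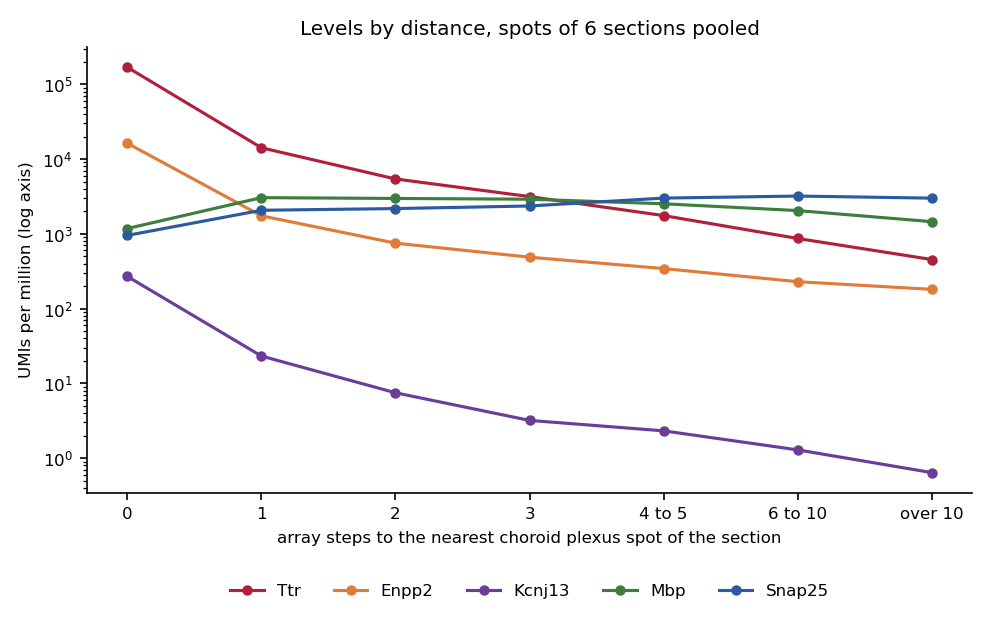
CPM (log axis) of 5 genes against the number of array steps to the nearest choroid plexus spot of the same section, spots of 6 sections pooled. Ttr, Enpp2 and Kcnj13 drop at each distance, while Mbp and Snap25 are lowest in the choroid plexus spots of this pool. By section, Mbp was higher in choroid plexus spots than beyond 10 steps in E4 young and in the E3 sections.

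The patches differed in what surrounded them. Next to the second patch, Mbp measured 1741, 1120 and 1399 CPM in E4 aged, E4 5xFAD and E3 young, against 2839 to 8745 next to the first patches of the 6 sections. Tac2 and Gng8, known from the medial habenula beside the third ventricle, measured 46.4, 671 and 1256 and 15.5, 154 and 419 next to the second patch, and Gng8 was at 0 next to every first patch. Tac2 was at 0 next to 5 first patches and at 55.1 next to that of E4 5xFAD, above its value next to the second patch of E4 aged. Inside the patches, Tac2 had 1, 95 and 158 UMIs in the second patch of E4 aged, E4 5xFAD and E3 young, against 1, 2 and 6 in the first. Of 3472 genes with at least 100 UMIs, 389 were higher in the second patch in all 3 sections and 716 were higher in the first. How many genes would do so without a difference between patches was not tested. Calb2, a calcium buffer of neurons, measured 146, 498 and 185 CPM in the second patch of E4 aged, E4 5xFAD and E3 young, against 9.88, 48.8 and 13.7 in the first. Penk, the enkephalin precursor, measured 19.0, 30.0 and 11.3 in the second patch, against 287, 561 and 190 in the first. The epithelial genes moved far less: Ttr was higher in the second patch by 0.14, 0.41 and 0.47 on the log2 scale, Enpp2 by 0.15, 0.42 and 0.54, and Kcnj13 was lower at -0.07, -0.69 and -0.15. Ependymal Ccdc153 measured 7.60, 31.7 and 120 in the second patch and 98.8, 97.6 and 146 in the first.

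**Figure D4:**
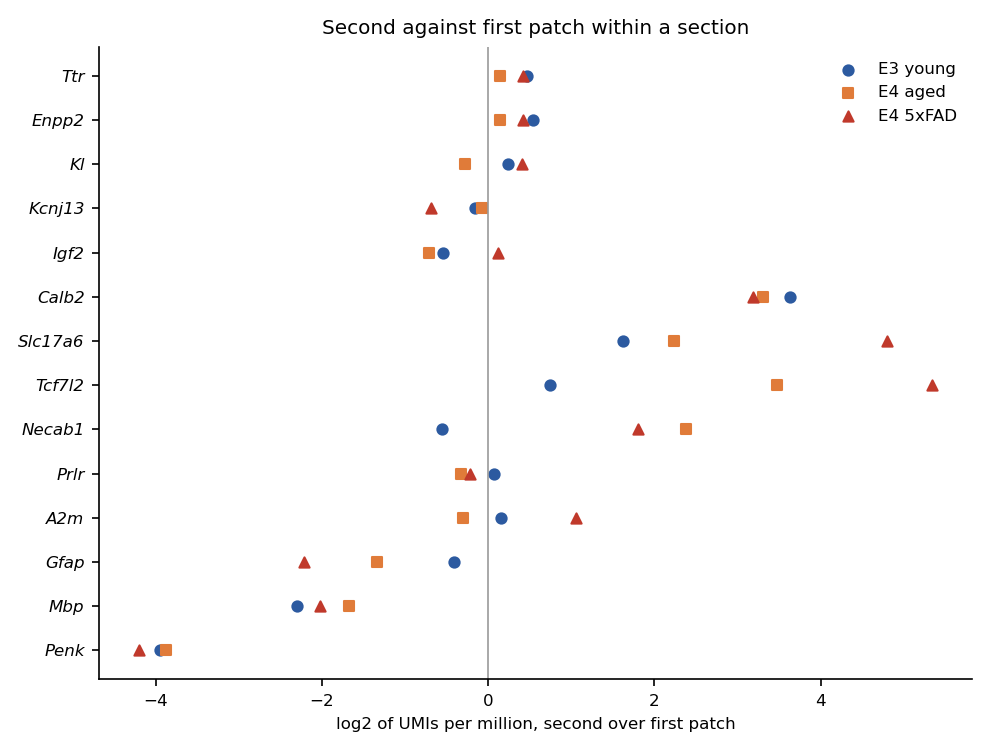
Log2 of CPM in the second over the first patch of the same section for 14 genes, with 1 point for each of the 3 sections that hold both patches; where a patch had 0 UMIs, 0.5 was used in its place. Epithelial genes such as Ttr and Enpp2 lie near 0, Calb2 lies over 3 and Penk under -3.

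The comparison of E4 with E3 asked whether the APOE allele goes with a different transcriptome of these spots. Summed counts were fitted with edgeR's quasi-likelihood test with genotype and condition as terms, on 6 sections and 7169 genes that passed its filter on low counts. After Benjamini-Hochberg adjustment, 10 genes were called (0.139%), 4 higher and 6 lower in E4, beside 459 at an unadjusted p under 0.05. DESeq2 called 0, with 84 under 0.05. Few of the calls were epithelial. The 10 were the neuronal genes Tcf7l2 and Necab1, haemoglobin Hbb-bs and immunoglobulin Igkc on the higher side, and the epithelial receptor Prlr, the protease inhibitor A2m, ependymal Ccdc153, Gfap, Vim and Gm47283 on the lower side. In 9 of them, all but Gfap, the 3 E4 and 3 E3 sections did not overlap. Of all genes tested, 5.87% lay higher in E4 without overlap and 6.56% lower. None of the 10 calls outlasted the removal of each section in turn.

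A2m, the broad protease inhibitor alpha-2-macroglobulin, measured 47.0, 94.0 and 106 CPM in E4 young, aged and 5xFAD, against 198, 393 and 170 in E3 young, aged and 5xFAD. All 3 E4 values lay under all 3 E3 values, and the E4 young value rests on 3 UMIs. It fell by 1.49 ± 0.27 on the log2 scale (SE; edgeR quasi-likelihood, Benjamini-Hochberg adjusted p = 0.0056). Within the first patch alone A2m measured 47.0, 109 and 48.8 in E4 and 187, 393 and 170 in E3, a fall by 1.83 ± 0.35 with an edgeR adjusted p of 2.26e-04. The call was lost without E4 young (-1.36), E4 aged (-1.08) or E3 aged (-1.13). In the other spots A2m was at 4.03, 9.22 and 16.4 in E4 and 6.42, 9.03 and 17.3 in E3, so the genotypes overlapped there.

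Prlr, the prolactin receptor, was the 1 marker of choroid epithelium among the 10. It measured 141, 233 and 197 CPM in E4 young, aged and 5xFAD, against 288, 619 and 298 in E3 young, aged and 5xFAD, with the E3 aged section standing well above the rest. It fell by 1.01 ± 0.22 (edgeR quasi-likelihood, adjusted p = 0.039). In the first patch the values were 141, 277 and 220 in E4 and 280, 619 and 298 in E3, still without overlap, with a log2 difference of -0.89 and an edgeR adjusted p of 0.20. Of the fits that each leave out 1 section, the call held only in that without E3 young (-0.98), and the difference lay between -1.23 and -0.78 over the 6 fits that each leave out 1 section, with -0.82 without E3 aged. The other 21 markers had no call, and over all 22 the median log2 difference was -0.01, beside -0.02 over all genes tested. These 22 include the 5 score genes, whose levels chose the spots. Of the 17 others, 8 were positive and 9 negative (median -0.02).

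The genes called lower in E4 included Ccdc153, Vim and Gfap. Ccdc153, a gene of motile cilia in the ependyma, measured 15.7, 22.3 and 39.6 CPM in E4 young, aged and 5xFAD and 131, 242 and 85.2 in E3. Its E4 young value rests on 1 UMI. Ccdc153 fell by 2.37 ± 0.39 (edgeR quasi-likelihood, adjusted p = 0.0024). All 11 ependymal genes tested had negative values (median -0.68), 1 of them called. In the first patch alone, where 8 were tested, 6 were negative and the median was -0.06, and Ccdc153 stood at -1.11 with an edgeR adjusted p of 0.49. Its call was also lost without E4 young (-2.26), E4 aged (-1.55) or E3 aged (-1.62). Vim, an intermediate filament of ependyma and reactive astrocytes, fell by 1.29 ± 0.28 (edgeR adjusted p = 0.039), and Gfap, the astrocyte filament, fell by 1.42 ± 0.29 (edgeR adjusted p = 0.025). Of the fits that each leave out 1 section, both calls held only in that without E3 young (-1.52 for Vim, -1.33 for Gfap). In the first patch Vim was at -0.36 and Gfap at -0.23, neither called. The summed ependymal level in other spots was 116, 47.5 and 49.9 in E4 and 56.6, 42.5 and 43.3 in E3, higher in E4 in each condition. All 12 myelin genes tested were negative with no call (median -0.59), whereas in the first patch alone 5 of 9 were positive (median 0.0095). Their summed level was 7578, 2856 and 2487 in E4 and 4492, 5686 and 6569 in E3.

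The genes called higher in E4 were neuronal or belong to blood and immune cells. Tcf7l2, a WNT effector known from thalamic and habenular neurons, measured 110, 233 and 217 CPM in E4 young, aged and 5xFAD and 57.1, 37.8 and 17.04 in E3, higher by 2.10 ± 0.35 (edgeR quasi-likelihood, adjusted p = 0.0024). Necab1, a neuronal calcium-binding protein, measured 78.3, 155 and 135 in E4 and 24.8, 22.7 and 25.6 in E3, higher by 2.21 ± 0.41 (edgeR adjusted p = 0.0056). Necab1 had 5 UMIs in E4 young and 3 each in E3 aged and E3 5xFAD, and Tcf7l2 had 2 in E3 5xFAD. All 10 genes of the thalamus and habenula list that were tested were positive (median 1.10), 1 of them called. Their summed level was 423, 830 and 1242 in E4 and 701, 249 and 187 in E3, with the second-patch sections E4 aged, E4 5xFAD and E3 young highest. None of that list passed the filter in the first patch. The Tcf7l2 call was lost without E3 aged (1.80), E3 5xFAD (1.73) or E4 5xFAD (1.75), and that of Necab1 in each fit but the one without E3 young (2.66), over a range of 1.88 to 2.70.

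Hbb-bs, a beta globin of red cells, measured 204, 41.4 and 27.9 in E4 young, aged and 5xFAD and 7.44, 15.1 and 0 in E3, higher by 4.02 ± 0.68 (edgeR adjusted p = 0.0024). Of the 13 UMIs in E4 young, 12 came from 1 spot. Its call was lost without E4 young (2.24), E3 young (2.22) or E4 5xFAD (3.82). Igkc, the kappa light chain of antibodies, measured 31.3 (2 UMIs), 271 and 13.2 in E4 and 6.20, 0 and 0 in E3, higher by 4.08 ± 0.66 (edgeR adjusted p = 0.0024). Of its 170 UMIs in the E4 aged section 150 lay in 1 spot of the second patch, and of the 154 UMIs of the heavy chain Ighm there 133 lay in 1 spot. The Igkc call was lost without E3 aged (2.38), and the fit without E4 aged did not test the gene. Gm47283, a predicted gene, measured 0, 1.59 and 4.40 in E4 and 33.5, 60.4 and 51.1 in E3 and fell by 4.09 ± 0.89 (edgeR adjusted p = 0.039). The same split was present in other spots (2.03, 1.27 and 3.04 in E4 and 40.1, 78.0 and 99.5 in E3). Its call was lost in the 3 leave-out fits that tested it (without E4 young -3.99, E3 aged -3.61, E3 5xFAD -4.96).

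**Figure D5:**
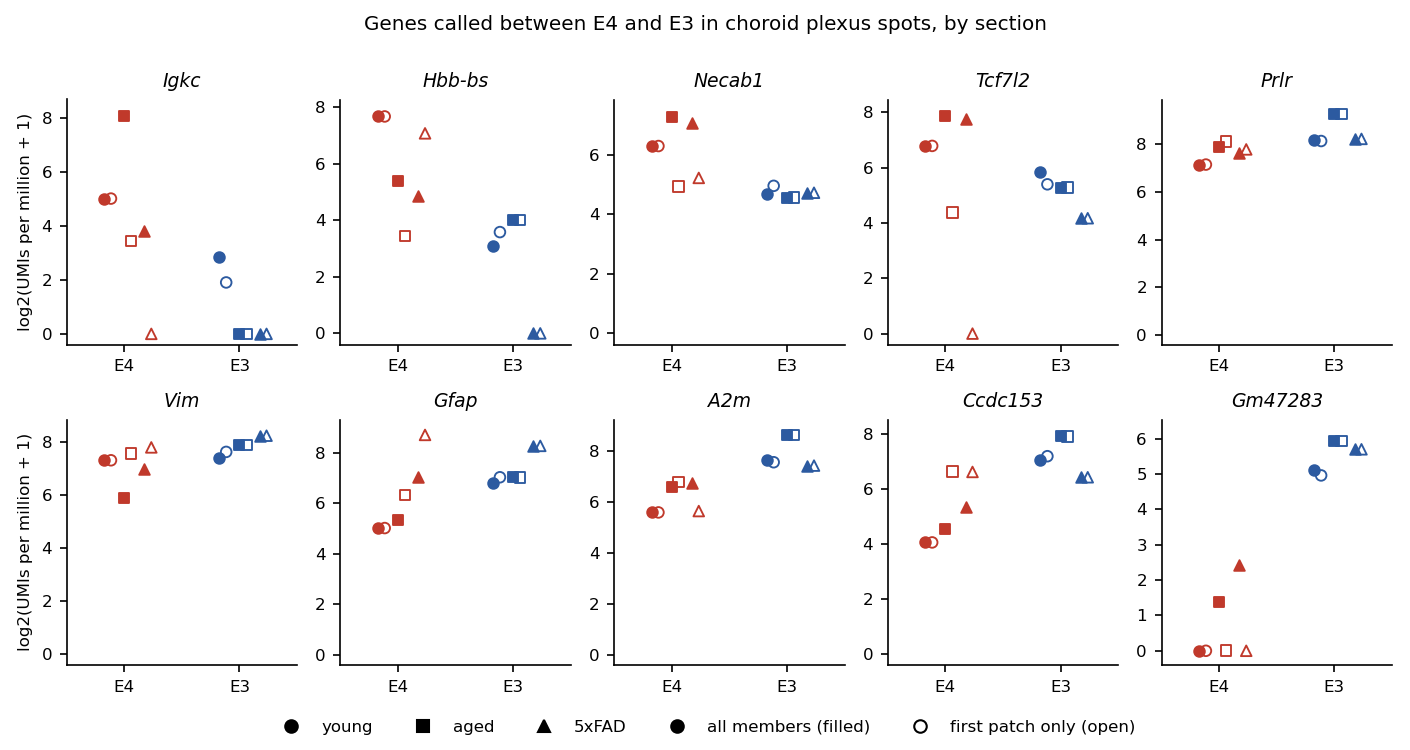
Log2 of CPM plus 1 in each section for the 10 genes called between E4 (left, red) and E3 (right, blue), with filled symbols for all choroid plexus spots and open symbols for the first patch alone; shapes mark young, aged and 5xFAD brains. A2m and Prlr are lower in E4 in both sets, whereas the open symbols of Vim and Gfap overlap between genotypes.

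With the first patch alone, 2183 genes passed the filter and 3 were called between E4 and E3 (0.137%): A2m, Hbb-bs (3.64 ± 0.84, edgeR adjusted p = 0.015) and Bc1, a neuronal cytoplasmic RNA that fell by 0.89 ± 0.14 (edgeR adjusted p = 1.48e-05). Hbb-bs measured 204, 9.88 and 134 CPM there in E4 young, aged and 5xFAD and 10.99, 15.1 and 0 in E3. The genotypes thus overlapped, and its E4 aged value rests on 1 UMI. In E4 young 12 of its 13 UMIs lay in 1 spot, and in E4 5xFAD all 11 of its first patch UMIs lay in 1 spot. Bc1 measured 1926, 1245 and 805 CPM in E4 young, aged and 5xFAD and 2756, 2016 and 2479 in E3. All 3 E4 values lay under all 3 E3 values, and in this patch 4.99% of genes tested were lower in E4 without overlap and 4.76% higher.

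The aged against young comparison asked what differs in these spots late in life, on the same fit. By edgeR quasi-likelihood, 0 of 7169 genes were called (0%), with 226 at an unadjusted p under 0.05, and DESeq2 called 0, with 16. The lowest p was that of Bst2, an interferon-induced membrane tether, at 237 and 121 CPM in aged E4 and E3 and 47.0 and 53.3 in young E4 and E3 (1.74 ± 0.40, edgeR adjusted p = 0.91). It was at 1.17 with the first patch alone and at 1.07 without E4 aged, and the fit without E3 aged called it (2.77). Interferon response genes were positive in 5 of 6 tested (median 0.88, all genes 0.01), and their summed level was 1782 CPM in E4 aged and 739 to 944 in the other 5 sections. Lgals3bp, a secreted glycoprotein induced by interferon, stood at 427 and 196 in aged E4 and E3 and 188 and 140 in young E4 and E3. MHC class II genes were negative in all 5 tested (median -1.43). The E4 aged section also held the antibody gene spot described above, with a summed level of lymphocyte and neutrophil genes of 521 against 34.1 to 78.3 elsewhere. Any link of that spot to the interferon response genes was not tested. With the first patch alone, 4 of 4 interferon response genes tested were positive (median 0.88), with none called. Ifi27l2a, a member of that list, stood at 196 CPM in E4 aged over all choroid plexus spots and at 49.4 in its first patch. Without E4 aged, Lgals3bp was at 0.33 (1.02 with all sections). Choroid epithelium markers were positive in 16 of 22 (median 0.13), a description only, since the 22 include the 5 score genes that chose the spots.

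In the first patch alone, 6 of 2183 genes were called between aged and young (0.275%), 4 higher and 2 lower. Prlr measured 277 and 619 in aged E4 and E3 and 141 and 280 in young E4 and E3, and rose by 1.10 ± 0.27 (edgeR quasi-likelihood, adjusted p = 0.031). Smim22, a small membrane protein that is among the 20 genes most particular to these spots by ratio, measured 148 and 211 in aged E4 and E3 and 62.6 and 63.2 in young E4 and E3, and rose by 1.69 ± 0.42 (edgeR adjusted p = 0.031). The aged and young values of Prlr overlapped. Pmch, the melanin-concentrating hormone precursor, rose by 2.22 ± 0.45 (edgeR adjusted p = 0.0030) and Gm42418, a gene model that overlaps ribosomal RNA, by 0.91 ± 0.17 (edgeR adjusted p = 5.70e-04). Gatm, which makes the creatine precursor, fell by 1.95 ± 0.46 (edgeR adjusted p = 0.023), and Tmsb4x, an actin-binding peptide, by 0.67 ± 0.17 (edgeR adjusted p = 0.031). With all choroid plexus spots, the values were 0.92 for Prlr, 1.25 for Smim22, -0.97 for Gatm and -0.60 for Tmsb4x, none called.

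The 5xFAD against young comparison called 1 of 7169 genes (0.0139%), with 211 at an unadjusted p under 0.05, and DESeq2 called the same number. The gene was Thy1, whose promoter drives the transgenes. Thy1 measured 1418 and 758 CPM in 5xFAD E4 and E3 and 219 and 283 in young E4 and E3, and rose by 1.85 ± 0.24 (edgeR quasi-likelihood, adjusted p = 5.39e-05). The 5xFAD values lay well above both young ones and both aged ones (387 in E4, 310 in E3). The call was lost without E4 young (1.44). In other spots Thy1 stood at 5329 and 3627 in 5xFAD E4 and E3 and 750 and 856 in young E4 and E3.

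Genes of activated microglia, complement and astrocytes were next by p, with no call over all choroid plexus spots. Trem2, a microglial lipid receptor, measured 54.3 and 111 in 5xFAD E4 and E3 and 0 and 12.4 in young E4 and E3 (3.11 ± 0.64, edgeR adjusted p = 0.061). C4b, a complement component, measured 71.9 and 204 in 5xFAD E4 and E3 and 31.3 (2 UMIs) and 40.9 in young E4 and E3 (2.16 ± 0.44, edgeR adjusted p = 0.061). Gfap was at 1.55 ± 0.34 (edgeR adjusted p = 0.10), Serpina3n, a serine protease inhibitor of reactive astrocytes, at 2.48 ± 0.57 (edgeR adjusted p = 0.17) and C1qb at 1.53 ± 0.36 (edgeR adjusted p = 0.19). With the first patch alone, Serpina3n was at 2.35 and C1qb at 1.14, neither called. Without E3 young, Trem2 was at 7.19 ± 3.21, C4b at 1.25 and Serpina3n at 1.35. Complement genes were positive in 5 of 6 tested (median 1.32, all genes 0.01), activated microglia in 9 of 10 (median 0.54) and homeostatic microglia in 6 of 6 (median 1.24), with 0 called in each. The choroid epithelium markers, which include the 5 score genes that chose the spots, were positive in 10 of 22 with a median of -0.0050 and no call.

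In the first patch 19 of 2183 genes were called between 5xFAD and young (0.870%), 4 higher and 15 lower. Thy1 rose by 2.00 ± 0.22 (edgeR adjusted p = 5.08e-11), C4b by 2.62 ± 0.47 (edgeR adjusted p = 4.36e-05) and Gfap by 1.71 ± 0.32 (edgeR adjusted p = 9.35e-05). C4b there measured 268 and 204 CPM in 5xFAD E4 and E3, against 31.3 and 35.7 in young E4 and E3, and Gfap 415 and 307 against 31.3 and 129. The young E4 values of C4b and Gfap rest on 2 UMIs each. Of 12 mitochondrially encoded genes tested, 9 fell, by between 0.56 and 0.76 on the log2 scale. One of them, mt-Co2, a cytochrome oxidase subunit, measured 6696 and 7412 in 5xFAD E4 and E3 and 12902 and 10957 in young E4 and E3. Over all choroid plexus spots all 12 were negative (median -0.40) with none called. Mitochondrial reads made up 8.59% and 6.90% of UMIs of choroid plexus spots in 5xFAD E4 and E3, against 11.2% and 8.86% in young E4 and E3. They were also lower in other spots, at 9.33% and 11.3% in 5xFAD E4 and E3 against 13.7% and 13.5% in young E4 and E3. The other 6 that fell were Snap25 and Rgs4 (neuronal genes), Malat1, Gm42418, Bsg (an epithelial and endothelial glycoprotein) and Igfbp4 (a binding protein of insulin-like growth factors).

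Whether the choroid plexus spots differ from the rest of the section in how they go with genotype, age or 5xFAD was tested in 1 fit over 12 sums, choroid plexus spots and other spots of each section, on 15635 genes. For the median gene, the spread used in this fit was wholly the one shared across genes. edgeR called 16 differences between E4 and E3 (0.102%, 10 more positive and 6 more negative in choroid plexus spots, 656 at an unadjusted p under 0.05), 8 between aged and young (0.0512%, all more negative, 360 under 0.05) and 6 between 5xFAD and young (0.0384%, 1 more positive and 5 more negative, 357 under 0.05). Calml4, a calmodulin-like protein of brush borders, was the 1 choroid epithelium marker called, in the E4 and in the 5xFAD difference. It measured 298, 186 and 240 in E4 young, aged and 5xFAD and 360, 423 and 375 in E3, and 5.28, 3.11 and 2.37 in the other E4 spots and 3.29, 1.13 and 0.680 in the other E3 spots. The E4 minus E3 difference was more negative in choroid plexus spots by 1.98 ± 0.32 (edgeR adjusted p = 3.73e-06), and by 2.01 ± 0.35 with the first patch alone (edgeR adjusted p = 2.21e-04), where 2 of 15156 genes were called (0.0132%). With the first patch alone the Calml4 levels overlapped, at 298, 326 and 537 in E4 and 404, 423 and 375 in E3. The call was lost without E4 aged (-1.69), E3 aged (-1.69), E4 5xFAD (-1.82) or E3 5xFAD (-1.83). The Calml4 difference between 5xFAD and young was more positive in choroid plexus spots by 1.81 ± 0.39 (edgeR adjusted p = 0.014), and by 2.19 ± 0.43 with the first patch alone (edgeR adjusted p = 0.0032). Of the 6 fits that each leave out 1 section, that without E4 young (2.27) kept this call, and the value was 1.17 without E3 young. In other spots Calml4 was higher in E4 than in E3 in each condition. Without the 5 score genes, 16 of the 17 other markers had a negative E4 difference (median -0.76, all genes 0.02), and these too come from the spots that the score chose. In choroid plexus spots by themselves, 8 of these 17 were positive and 9 negative between E4 and E3 (median -0.02). In other spots all 22 markers, score genes included, summed to 438, 1651 and 1644 CPM in E4 young, aged and 5xFAD and 1532, 410 and 447 in E3. The source of these UMIs was not tested.

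The other E4 differences were in genes met above and their kin. On the positive side stood Igkc, Ighm, Hbb-bs, Necab1, Tcf7l2 and 5 more, namely Slc17a6 (the glutamate carrier of thalamic and habenular neurons), Calb2, Ntng1 (a neuronal adhesion protein), Uchl1 (a neuronal ubiquitin hydrolase) and Prl (prolactin). Prl measured 0, 3.19 and 133 CPM in E4 young, aged and 5xFAD and 18.6, 7.55 and 8.52 in E3, lower in E4 in the young and aged pairs. All 91 of its UMIs in E4 5xFAD lay in the second patch, 32 of them in 1 spot. Slc17a6 measured 15.7, 182 and 148 CPM in choroid plexus spots of E4 young, aged and 5xFAD and 54.6, 7.55 and 17.04 in those of E3 young, aged and 5xFAD, so the genotypes overlapped. On the negative side stood Ccdc153, Vim, Gfap, C4b, Calml4 and Tmem212, another gene of ciliated ependyma. Tmem212 measured 15.7 (1 UMI), 41.4 and 60.1 in E4 and 144, 113 and 119 in E3, without overlap. Its first patch values overlapped, at 15.7, 178 and 159 in E4 and 143, 113 and 119 in E3. All 12 ependymal genes had negative E4 differences (median -1.09, 2 called) and all 12 thalamus and habenula genes positive ones (median 1.44, 2 called). With the first patch alone, Calml4 and Hbb-bs were the 2 genes called, and differences not called there were 0.36 for Tcf7l2, 1.09 for Necab1, 0.22 for Slc17a6, -0.80 for Vim, -0.93 for Gfap and -0.39 for C4b. The first patch levels of Hbb-bs, given above, overlapped between genotypes and rest on few spots. The Igkc difference of 5.51 lost its call in all 6 fits that each leave out 1 section (13.18 without E3 young, 13.19 without E4 young). That of Calb2, at 1.83, was 0.79 without E4 5xFAD and 0.78 without E3 5xFAD, both not called, and 4.29 without either young section. That of Slc17a6, at 2.01, was 3.82 without either young section and lost its call in the other 4 fits.

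The 8 aged differences, all more negative in choroid plexus spots, were those of Tac2, Gng8, Necab2, Prl, Gh (growth hormone), the predicted gene Gm5741 and the globins Hbb-bs and Hba-a1. Tac2 measured 3.19 and 0 CPM in aged E4 and E3 and 0 and 203.4 in young E4 and E3, so that the young level came from 1 section. Without E3 young, the young spots that remain hold 0 UMIs of Tac2, Gh, Prl and Gm5741, and the fit gives no usable sign or size for them (SE 12.8 to 32.8). Necab2 was then at 1.10 ± 1.35. Without E4 aged, Hba-a1 moved to -0.48 (-3.45 with all sections), Hbb-bs to -1.31 (-3.28) and Gng8 to -2.37 (-5.51), and all 3 lost the call. Without E4 young, Hba-a1 was at -1.38 and not called. Hbb-bs was the 1 gene of 15156 called with the first patch alone (0.0066%), at -4.37 ± 0.83 (edgeR adjusted p = 0.0024), and in young E4 12 of its 13 UMIs lay in 1 spot.

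The 5xFAD differences concerned lysosomal and immune genes. Ctsd, a lysosomal protease, stood at 1299 and 1346 CPM in choroid plexus spots of 5xFAD E4 and E3 and 1268 and 1117 in those of young E4 and E3, while in other spots it stood at 1125 and 849 in 5xFAD E4 and E3 and 305 and 324 in young E4 and E3. Its 5xFAD difference was more negative in choroid plexus spots by 1.34 ± 0.26 (edgeR adjusted p = 0.0043). The same direction was called for Ctsz, another cathepsin (-1.69 ± 0.37, edgeR adjusted p = 0.017), for Lyz2, the lysozyme of myeloid cells (-2.33 ± 0.50, edgeR adjusted p = 0.014), for Lgals3bp (-1.90 ± 0.38, edgeR adjusted p = 0.0043) and for Ifi27l2a, an interferon-induced gene (-3.13 ± 0.72, edgeR adjusted p = 0.040). Ctsd, Ctsz and Lyz2 were also called with the first patch alone (4 of 15156 genes, 0.0264%), at -1.45, -1.68 and -2.70. Over the 19 genes of activated microglia tested, 14 were negative and the median was -1.31, with 3 called. In choroid plexus spots Ctsd lay between 1075 and 1346 in all 6 sections. With 1 section left out at a time, the Ctsd call held only without a young section (-1.45 without E3 young, -1.29 without E4 young), that of Ctsz only without E3 young (-2.35), and those of Lyz2 (-2.19), Lgals3bp (-2.01) and Ifi27l2a (-4.30) only without E4 young.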

How the data were processed

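The authors deposited filtered matrices of UMI counts per gene and spot, made per the labels with Space Ranger 1.3.0 and STAR 2.5.1b, while the file headers name Space Ranger 2.0.0 for E3 5xFAD and 1.2.2 for the other sections. Each matrix holds 32287 genes, 32285 of mouse and the human genes APOE and APP used here. The 14524 spots in both the tissue mask and a matrix were reduced to 13334 with at least 1000 UMIs, between 1445 and 2644 per section. No doublet caller was run, since a spot holds several cells. CPM are the summed counts of a gene in a set of spots, scaled to 1000000 UMIs of that set. Sums over choroid plexus spots of 6 sections were fitted with genotype and condition as terms, which leaves 2 residual degrees of freedom and 1 section per group, by edgeR 4.0.16 (TMM scaling, filterByExpr, glmQLFTest, Benjamini-Hochberg adjustment, threshold 0.05). The difference fits used 12 sums and also leave 2 residual degrees of freedom. The weight of the spread shared across genes (prior degrees of freedom, median gene) was 32.1 in the fit on choroid plexus spots. In the difference fit it was infinite, so the median gene's own spread did not count there. The scripts were tested on simulated data. DESeq2 1.42.0, limma 3.58.1, R 4.3.3, Python 3.11.15, NumPy 2.4.6, pandas 2.3.3, SciPy 1.17.1 and matplotlib 3.10.9 were also used. Intervals are exact (Clopper-Pearson or binomial) and cover counting error only.

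Named genes were the 5 score genes and the choroid epithelium markers, the 20 leading genes by ratio with at least 200 UMIs, up to 10 genes in each direction per fit with any list member that was called, and up to 4 members of each list by level. Prlr, Smim22, Gatm, Tmsb4x, Bst2 and Lgals3bp in the aged comparison, and Trem2, C4b, Gfap, Serpina3n and C1qb in that of 5xFAD, were named after their values were seen, as were the genes called with the first patch alone and the neighbour and patch genes. The choice of these spots and of all gene lists was made with earlier results of these data known. Alternatives were DESeq2, no TMM, no filter on low counts, other percentiles and UMI minimums, a threshold within each section, equal spot numbers, thinning to 1248 UMIs per spot, the adjacent ring of spots in place of all other spots, leaving out each section and, added after seeing the data, the first patch alone and the barcodes outside the mask. Barcodes outside the tissue mask entered no other comparison. Values of a few genes that the rules above would name are not reported here.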

Additional observations from a re-analysis of the deposited data

Results flagged for a closer look

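The effect of genotype, age or 5xFAD differed between choroid plexus spots and other spots of the same sections for the genes below, by the edgeR test of the difference itself, and no explanation was tested. For E4 minus E3 the difference was 5.51 for Igkc, 3.65 for Hbb-bs, 3.15 for Prl, 2.72 for Ighm, 2.45 for Necab1, 2.36 for Ntng1, 2.08 for Tcf7l2, 2.01 for Slc17a6, 1.83 for Calb2 and 0.97 for Uchl1 on the log2 scale. It was -3.28 for Ccdc153, -3.12 for Tmem212, -2.02 for C4b, -1.98 for Calml4, -1.91 for Gfap and -1.53 for Vim. For aged minus young it was -8.75 for Gm5741, -7.25 for Gh, -6.79 for Tac2, -6.27 for Prl, -5.51 for Gng8, -3.45 for Hba-a1, -3.28 for Hbb-bs and -1.94 for Necab2. For 5xFAD minus young it was 1.81 for Calml4, -3.13 for Ifi27l2a, -2.33 for Lyz2, -1.90 for Lgals3bp, -1.69 for Ctsz and -1.34 for Ctsd. In choroid plexus spots the level of Prl was lower in E4 than in E3 in the young and aged pairs and higher in the 5xFAD pair.

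Barcodes outside the tissue mask also reached the score threshold, 24 in the E4 aged section, 44 in the E4 5xFAD section and 15 in the E3 young section. All 83 lay at array row 50 or higher, the range assigned to the second patch, and 34 touched a choroid plexus spot.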

How the results depend on the processing

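The E4 to E3 count of 10 genes was 0 with DESeq2, with the spots above the median score, with the 99th percentile within each section and with the same number of spots in each section, 2 after thinning, 3 with the first patch alone and 6 with no filter on low counts. The aged count of 0 was 3 with no filter and 6 with the first patch alone. The 5xFAD count of 1 was 3 with the score genes left out, 2 at the 98th percentile, 0 within each section, 3 and 2 at UMI minimums of 500 and 2000, 4 after thinning and 19 with the first patch alone. Leaving out 1 section gave 2 to 38 genes for E4 to E3 (2 without E3 aged, 38 without E3 young), 1 to 5 for aged (5 without E3 aged) and 0 to 4 for 5xFAD (0 without E4 young). With 1 section left out, its arm has no sample of its own, and the spread comes from the other sections.

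For the differences between choroid plexus and other spots, the E4 count of 16 was 7 with DESeq2, 28 with no TMM factor (13 higher and 15 lower), 60 at the 98th percentile, 1 above the median score, 4 within each section, 2 with the first patch alone and 2 against the ring of spots at 1 step. The aged count of 8 was 0 with DESeq2, 17 at the 98th percentile, 2 above the median score, 0 within each section, 1 with the first patch alone and 0 against the ring. The 5xFAD count of 6 was 0 with DESeq2, 1 at the 98th percentile, 0 above the median score, 2 within each section and 0 against the ring. Leaving out 1 section gave 2 to 79 for E4 (79 without E3 young, 2 without E3 aged or E4 aged), 0 to 18 for aged and 0 to 16 for 5xFAD (18 and 16 without E4 young). The median of all E4 differences was 0.02, against -0.17 with the first patch alone.

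The sign turned in 20 of 814 values of named genes, while 254 of those called kept direction and call, 328 lost the call, and of those not called 195 stayed so and 17 gained one. For E4 the sign turned with the first patch alone for Ntng1 (-0.19), Ighm (-0.49) and Prl (-9.31), and against the ring for Ntng1 (-1.12), Uchl1 (-0.32), Slc17a6 (-0.55), Hbb-bs (-0.47) and C4b (0.087). It also turned for Ighm without E3 aged or E4 aged (-0.89 each) and for Prl without E3 5xFAD (-1.53) or E4 5xFAD (-1.52). For aged it turned for Gm5741 with the first patch alone (1.10), against the ring (0.81) and without E3 young (0.37), for Necab2 against the ring (0.44) and without E3 young (1.10), and without E3 young for Tac2 (7.21 ± 18.7), Gh (5.29 ± 32.8) and Prl (6.21 ± 25.8), values that carry no information since the remaining young spots hold 0 UMIs of these genes, as of Gm5741. Over all sections left out in turn, the E4 difference reached 3.99 for Ighm and 4.77 for Prl, and the aged difference reached -15.91 for Gm5741, -2.85 for Necab2, -19.32 for Tac2, -18.47 for Gh and -8.28 for Prl. The causes were not tested.

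The number of choroid plexus spots was 15, 64 and 58 in E4 young, aged and 5xFAD and 91 in E3 young at the 98th percentile. Above the median score it was 4, 15 and 16 in E4 and 19, 7 and 6 in E3. Within each section it was 23 and 15 in E4 young and aged and 22 and 26 in E3 aged and 5xFAD. With the barcodes outside the mask it was 54 and 77 in E4 aged and 5xFAD. No paired analysis was possible because each group holds 1 section, so that no replicate number pairs sections. The shallowest sum, of 63865 UMIs in E4 young, limits low genes.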
